A study of Mus musculus with 4 samples.

Results

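The small leucine-rich proteoglycans are secreted matrix proteins, and 10 of their genes were described here in a mouse fibroblast line carrying wild-type or deletion-mutant EGFR. The members were Dcn, Lum, Bgn, Ogn, Omd, Aspn, Fmod, Prelp, Kera and Podn, found by gene name among the 55681 non-control probes of the array, which gave 10 probes, 1 for each gene. Of the 10 genes, 8 could be tested, among 18093 features in all, where a feature is a gene name or an unnamed transcript. The cells were NIH3T3, an established line of mouse embryonic fibroblasts, profiled at steady state without treatment on 1-colour Agilent arrays, with 2 arrays for cells with wild-type EGFR and 2 for cells with deletion-mutant EGFR. EGFR is the receptor tyrosine kinase for epidermal growth factor. The labels state neither the extent of the deletion, the species of the receptor, the promoter that drives it, nor whether each line is 1 clone, and no parental cells without an introduced receptor were analysed here. Separate cDNA preparations are mentioned but not separate cultures, so the p-values reflect array-to-array spread alone, which may be technical.

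The proteins of this family share a core of leucine-rich repeats, bind collagen fibrils and set their spacing and thickness. Decorin and biglycan carry chondroitin or dermatan sulfate chains, while lumican, fibromodulin, keratocan and osteomodulin can carry keratan sulfate. Several members also bind growth factors or cell-surface receptors, and soluble decorin is known as a ligand of EGFR itself. Fibroblasts of connective tissue are a main source of the family.

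The array measures each gene with a probe of 60 bases, of which the first 30 are shown for the genes whose values carry the results, so that it is clear which stretch of transcript was read. All 5 lie on the plus strand of mm9 in the files.
Ogn: cattaaagcatctgtgaactgtaaggccac
Aspn: ctcaactcataataaagcttcaagtattca
Omd: taaagatcagaactgcgtttaagatgttgg
Lum: taagcatttgcacggttacttagtgaaact
Dcn: aacaccttcagatgtgtctatgtgcgttct
The probes of Aspn (chr13:49662479-49662538), Omd (chr13:49687847-49687906) and Ogn (chr13:49719549-49719608) span 57.1 kb, and those of Dcn (chr10:96980233-96980292), Lum (chr10:97035210-97035269) and Kera (chr10:97076230-97076289) span 96.1 kb. The exon or untranslated region that a probe matches was not analysed here.

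The 4 arrays shared 1 slide, where wild-type arrays stood in column 2 and deletion-mutant arrays in column 3, so slide column and receptor cannot be told apart. Arrays with replicate number 1 stood in row 1 and those with number 2 in row 2. The share of probes well above background ran from 42.9% to 46.9%, no spot was saturated, and the arrays of a group correlated at 0.9976 (wild type) and 0.9968 (deletion mutant) across features. Mouse Egfr was at least 11.5-fold lower in deletion-mutant cells, which does not check the labels, since the species of the introduced receptor is not stated. Of 10 fibroblast markers, 9 were well above background on every array, the exception being Fap. Across the series 58.8% of features passed an adjusted p of 0.05 in either direction, 24.2% as lower and 34.6% as higher, so passing the test is by itself common here.

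The family moved unevenly. Of the 8 tested genes, 6 were lower in deletion-mutant cells (Aspn, Ogn, Omd, Podn, Fmod and Bgn), 1 was higher (Lum) and 1 did not pass (Dcn), against a background of 24.2% lower and 34.6% higher. Under the reported processing 5 of the 8 were lower by at least 2-fold, against 7.46% of all features, and 0 were higher by that much, against 5.94%. The median log2 fold change was -3.01, against 0.07 over all features, and -1.29 when the 4 genes that lay at background in deletion-mutant cells were set to their bound. Those 4 (Aspn, Omd, Fmod and Podn) entered the test only through the wild-type arrays and so had to be lower in deletion-mutant cells. For that reason the count over tested genes is a description. The other 2 genes, Prelp and Kera, were not well above background on any array.

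**Figure D1:**
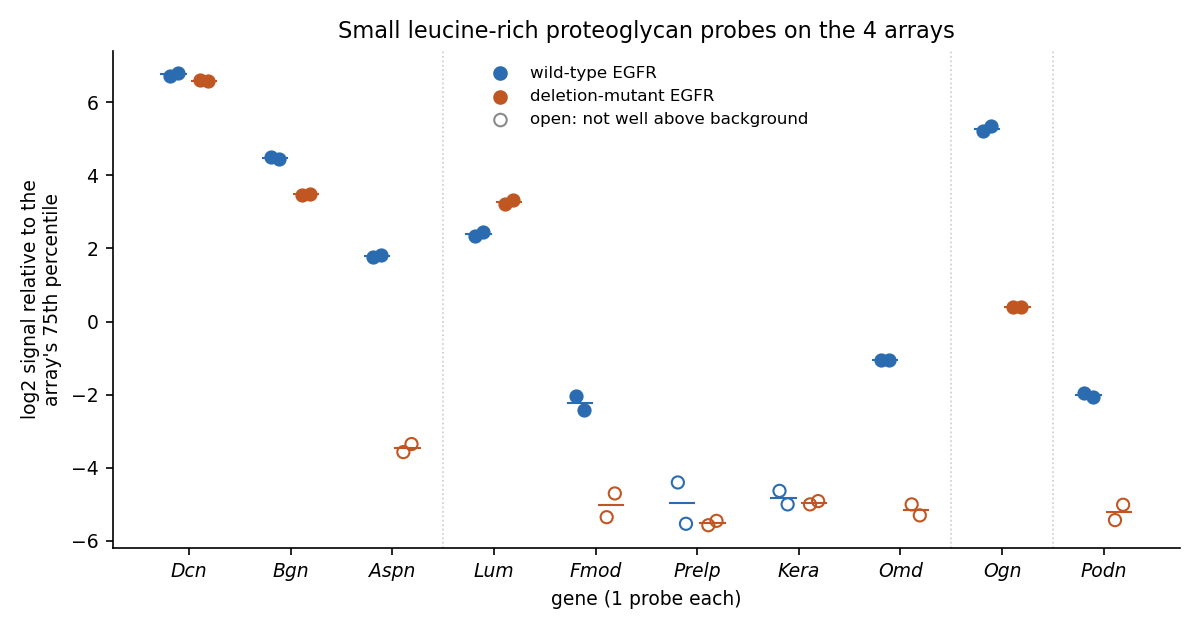
Level of the 10 genes on each of the 4 arrays, as log2 signal relative to the array's 75th percentile (vertical axis), with a line at each group's mean of 2 arrays; dotted lines separate the classes of the family. Ogn fell from 5.27 to 0.40 while Dcn stayed between 6.58 and 6.79, and open symbols mark probes that were not well above background.

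Levels below are log2 signals minus the array's 75th percentile, so that 0 is that percentile, and levels of different probes are not compared with each other. Where a probe was at background in the deletion-mutant arrays, the fold is a lower bound under the reported processing only. With normexp background correction, described below for Aspn, the log2 fold changes were -1.31 for Omd, -0.89 for Podn and -0.79 for Fmod. Each of these is smaller in size than the gene's bound. The bound divides the bright group's mean by a floor for the dim group, taken on every array as the lowest signal of any probe well above background, or the probe's own signal if that was higher, and then averaged. Every gene given as at least so many fold lower or higher, member or not, entered the test only through its brighter group, so the filter fixed its direction and its p adds no support for that direction. Fold changes are given with their standard error (SE) from limma, and the adjusted p is by Benjamini and Hochberg over all 18093 features.

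Ogn encodes osteoglycin, also called mimecan, a member with a short array of repeats. Its signal was 12800 and 14800 intensity units on the wild-type arrays and 434 and 461 on the deletion-mutant arrays. The groups lay far apart, and all 4 arrays were well above background, so that this fold is measured on both sides. Ogn fell 29.3-fold, from a level of 5.27 ± 0.089 (SD, n = 2) to 0.40 ± 0.013, with a log2 fold change of -4.87 ± 0.070 SE (limma adjusted p = 0.000146). Among the 18093 fitted changes it ranked 29 from the lowest.

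Aspn encodes asporin, a close relative of decorin named for a run of aspartate residues, known to bind collagen and TGF-beta. It gave 1180 and 1290 intensity units with wild-type EGFR and 27.6 and 34.5 with the deletion mutant. Both deletion-mutant arrays were below the limit of background, and both wild-type arrays were clear of it. Aspn was at least 36.7-fold lower, its level going from 1.79 ± 0.028 (SD, n = 2) to -3.46 ± 0.15 (limma adjusted p = 0.000146). With normexp background correction, which adds an offset to every signal, the log2 fold change was -3.38, smaller than this bound.

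Omd encodes osteomodulin, or osteoadherin, a keratan sulfate proteoglycan best known from bone and tooth matrix. Its probe was dimmer, at 165 and 177 intensity units in wild-type cells and 10.2 and 8.96 in deletion-mutant cells. The 2 groups did not overlap, and the second was at background. Omd was at least 5.1-fold lower (fitted log2 fold change -4.09 ± 0.12 SE, limma adjusted p = 0.00024). The fitted value would be 17-fold, but it rests on a background signal.

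Dcn, Lum and Kera form the other cluster, where only Dcn and Lum could be measured. Dcn encodes decorin, the prototype of the family, and gave 36500 and 40700 intensity units on the wild-type arrays against 31700 and 33700 on the deletion-mutant arrays. These ranges do not overlap, yet the distance is small: the log2 fold change was -0.17 ± 0.059 SE (limma adjusted p = 0.0693), which did not pass. Its direction and call depended on the scaling, since it was 0.01 under median scaling and passed as lower, at -0.36, under both quantile normalization and the 75th percentile of detected probes. It also passed as lower with normexp background correction (-0.25) and with an intensity trend and robust variances (-0.17). Non-overlap of the groups held for 8 of the 8 tested genes and was itself frequent, at 81.7% of all features (35.3% lower and 46.4% higher).

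Lum encodes lumican, a keratan sulfate proteoglycan that regulates collagen fibrils in cornea and skin. Its signal was 1760 and 1990 intensity units in wild-type cells and 3050 and 3540 in deletion-mutant cells. Both deletion-mutant arrays were higher than both wild-type arrays. Lum rose 1.84-fold (0.88 ± 0.072 SE, log2, limma adjusted p = 0.00147), and was the 1 tested member that passed as higher.

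Within an array, the ratio of Lum to Dcn does not depend on scaling. On the log2 scale it was -4.37 and -4.36 in wild-type and -3.38 and -3.25 in deletion-mutant arrays, a rise of 1.05, or 2.07-fold. All deletion-mutant values were above all wild-type values, which is the most extreme split of 4 arrays, yet the two-sided exact permutation p is 0.333 and no smaller p can be had in this design. It was 1 of 5 pairs computed, each with the same exact permutation p of 0.333, also after adjustment over the pairs. The ratio of Bgn to Dcn, which share no cluster, was -2.23 and -2.34 against -3.13 and -3.08, a change of -0.82. The other 3 pairs involve Omd or Aspn, whose deletion-mutant signal was at background. Kera, which encodes the corneal keratan sulfate proteoglycan keratocan, was read by 10 spots per array and gave 13.9 and 11.5 against 10.2 and 11.7 intensity units, none well above background.

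Bgn encodes biglycan, which carries chondroitin or dermatan sulfate chains and can signal through Toll-like receptors. It gave 7750 and 8050 intensity units with wild-type EGFR and 3610 and 3980 with the deletion mutant (probe at chrX:70738554-70738613). The ranges were well separated and all 4 arrays bright. Bgn fell 1.99-fold (-0.99 ± 0.056 SE, log2, limma adjusted p = 0.00073), just short of the 2-fold mark. The side of that mark depended on the processing. Its log2 fold change was -1.22 under quantile normalization, -1.19 under the percentile of detected probes and -1.03 with normexp, but -0.81 under median scaling.

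Fmod and Prelp are neighbours on chromosome 1. Fmod encodes fibromodulin, which binds collagen and guides fibril assembly and cross-linking in tendon. Its signal was 84.3 and 68.3 intensity units in wild-type cells and 8 and 13.6, at background, in deletion-mutant cells, so that it was at least 2.26-fold lower (limma adjusted p = 0.00209). Prelp encodes a basic member that anchors basement membranes to connective tissue. The accession given for its probe matched no RefSeq transcript. The probe gave 16.3 and 7.93 against 6.9 and 8.05 intensity units, none well above background. In a fit without the background filter neither Prelp (log2 fold change -0.54 ± 0.45 SE, limma adjusted p = 0.459) nor Kera (-0.14 ± 0.16, adjusted p = 0.567) passed.

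Podn encodes podocan, a more distant member first described in podocytes and smooth muscle. It gave 88.8 and 87.7 intensity units in wild-type and 7.57 and 10.9 in deletion-mutant cells (probe at chr4:107687484-107687543). The wild-type arrays were above background and the deletion-mutant arrays were not. Podn was at least 2.63-fold lower (limma adjusted p = 0.00057).

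The genes around Ogn, Omd and Aspn were read in their order along the chromosome. In RefSeq (GRCm38.p6) the order is Ippk, Cenpp, Ecm2, Aspn, Omd, Ogn, Nol8 and Iars, and the span of Cenpp overlaps that of Ecm2, Aspn, Omd and Ogn. Ecm2, which encodes a leucine-rich matrix protein related to this family, lies at -34.3 kb from the cluster's nearest probe (before it on the chromosome) and was at least 2.14-fold lower, at background in deletion-mutant cells like Aspn and Omd. The next genes on either side did not pass as lower under the reported processing, 3 other scalings or normexp. Cenpp, a centromere protein, was higher by 0.31 (log2, adjusted p = 0.0287), Nol8, a nucleolar protein, by 0.54 (adjusted p = 0.0412) and Iars, an isoleucyl-tRNA synthetase, by 0.85 (adjusted p = 0.00226), while Ippk, an inositol phosphate kinase, had 0.00 and did not pass (limma adjusted p = 0.992). Cenpp was not called under quantile normalization (0.23) or under the percentile of detected probes (0.11), nor was Nol8 under the latter (0.34).

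Within 500 kb of the 3 members the array held 23 other features, of which 15 were tested. Of these 10 were higher, 2 were lower and 3 did not pass, where 34.6% of all features were higher and 24.2% lower. Under the percentile of detected probes 5 were higher and 2 lower, where 23.6% of all features were higher and 37.2% lower. Under quantile normalization 7 were higher and 2 lower, where 29.2% of all features were higher and 28% lower. The 2 lower ones were Ecm2 and Fgd3, an exchange factor for the GTPase Cdc42, which lies at -305.5 kb and fell by 2.20 on the log2 scale (limma adjusted p = 0.000392), with Bicd2, Ippk and Cenpp between them. Bicd2, a dynein adaptor, was higher by 0.36 (limma adjusted p = 0.0157), but did not pass under either of those scalings. Ninj1, a membrane protein, was higher by 0.55 (adjusted p = 0.00228) and 1110007C09Rik, named Card19 in RefSeq, by 0.71 (adjusted p = 0.00184). Around Dcn, Lum and Kera only 2 of 9 other features within 500 kb could be tested, both unnamed transcripts and both lower, and Epyc, the related gene of epiphycan, was not well above background on any array. A description of neighbours is no test of position.

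**Figure D2:**
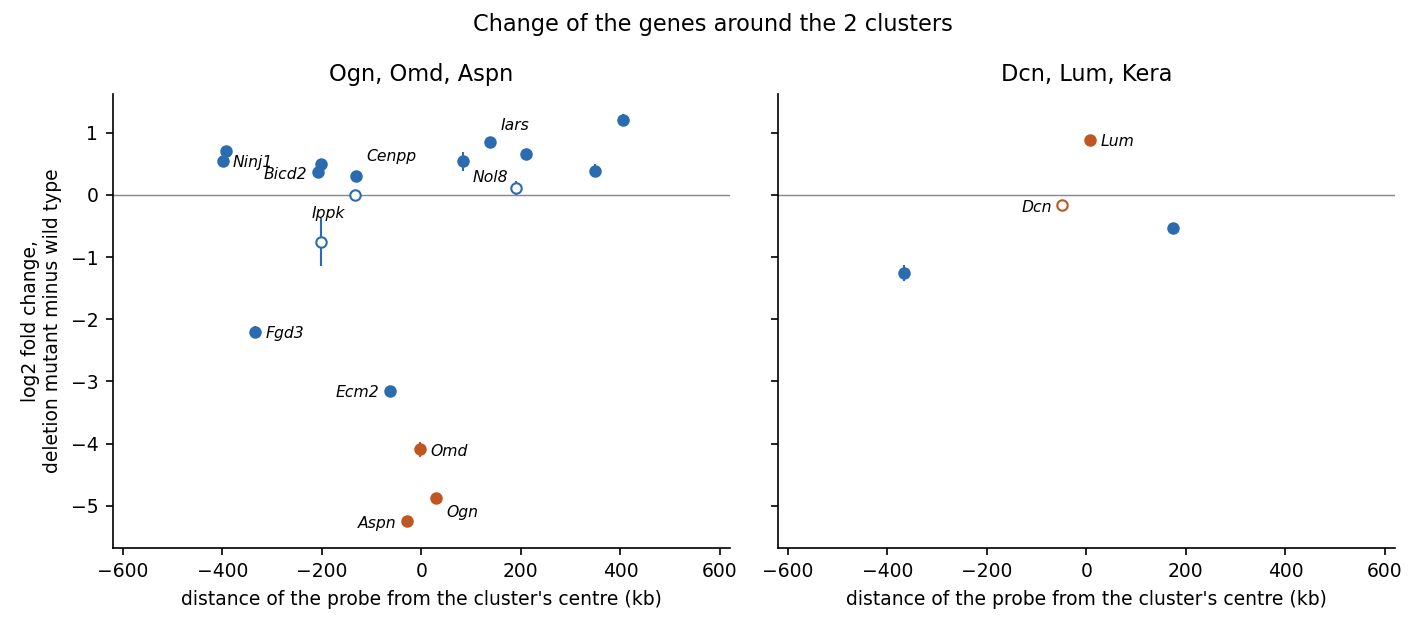
Log2 fold change of each tested feature (vertical axis, bars are SE) against the distance of its probe from the cluster's centre in kb, for Ogn, Omd and Aspn (left) and Dcn, Lum and Kera (right); members are orange, others blue, and open symbols did not pass. Ecm2, Aspn, Omd and Ogn lie below -3 side by side, between Cenpp at 0.31 and Nol8 at 0.54; values of Ecm2, Aspn and Omd are fitted on deletion-mutant signals at background.

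Since Aspn, Omd and Ogn were lower together, the 250 bases before the start of each gene are shown from RefSeq (GRCm38.p6, plus strand). Capitals mark the letters TATAAA on either strand.
Aspn (chr13:49544193-49544442): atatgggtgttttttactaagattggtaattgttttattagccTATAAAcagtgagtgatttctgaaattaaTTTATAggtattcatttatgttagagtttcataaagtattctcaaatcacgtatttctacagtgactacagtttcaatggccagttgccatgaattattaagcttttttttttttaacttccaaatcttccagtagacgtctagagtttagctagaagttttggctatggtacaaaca
Omd (chr13:49582212-49582461): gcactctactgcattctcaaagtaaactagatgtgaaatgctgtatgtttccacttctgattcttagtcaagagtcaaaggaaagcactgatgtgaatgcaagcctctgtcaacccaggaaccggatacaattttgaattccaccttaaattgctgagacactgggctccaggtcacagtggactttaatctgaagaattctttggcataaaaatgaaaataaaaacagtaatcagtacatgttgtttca
Ogn (chr13:49607765-49608014): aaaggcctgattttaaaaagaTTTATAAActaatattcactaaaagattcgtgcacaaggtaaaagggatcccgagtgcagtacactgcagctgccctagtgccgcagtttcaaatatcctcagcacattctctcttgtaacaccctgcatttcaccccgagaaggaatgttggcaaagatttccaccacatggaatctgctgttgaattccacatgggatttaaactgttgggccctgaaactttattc

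In windows from 250 bases before to 50 after the start, promoters of 8 of the 10 genes were in the table used; Dcn and Lum are named only. The letters TATAAA were found for Aspn and Ogn, where the 2 matches in Ogn overlap, and in 13.6% of all 32851 promoters. They lie far from the start, from position -207 in Aspn and -229 in Ogn. GGGCGG was found for Bgn and Podn (35.7% of promoters) and CAGACA for Prelp and Podn (21.0%), with overlapping GGGCGG matches in Bgn. TGANTCA (7.81%), CCGGAAGT (3.89%) and a fixed spelling of the CArG box (0.0639%) were found for none of the 8. The CArG box allows other spellings, which were not searched, so its presence in these promoters was not tested. Both strands were searched, and a match or its lack is a description of these letters only.

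Other genes of the family's biology were read from fixed lists, whose counts stand against 24.2% of all features lower and 34.6% higher. The counts include genes that passed the background filter through 1 group only, whose direction the filter fixed or favoured. Of 8 further small leucine-rich repeat matrix proteins 4 were tested, of which 3 were lower and 1 higher. Under the 75th percentile of detected probes 3 were lower and 0 higher, where 37.2% and 23.6% of all features were. Besides Ecm2, the lower ones were Chadl, a chondroadherin-like collagen binder (2.14-fold), and Tsku, tsukushi (1.39-fold). Podnl1, podocan-like 1, was 1.30-fold higher under the main scaling.

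Of 14 tested fibrillar and fibril-associated collagens, to which the family binds, 12 were lower (24.2% of all features), 1 rose and 1 did not pass. Their median log2 fold change was -0.98 against 0.07 over all features. Only 11 of the 14 were well above background on both deletion-mutant arrays. The others, Col11a1, Col12a1 and Col14a1, passed the background filter through the wild-type arrays alone. The filter thus fixed or, for Col14a1, favoured their lower direction, so the count is a description. Among the 12, Col12a1 was at least 41.2-fold lower and Col11a1 at least 20.3-fold, both at background in deletion-mutant cells, and Col5a2, a chain that controls fibril diameter, fell 6.82-fold. Col6a3 rose 1.43-fold. The main chains of type I and III collagen fell less, Col1a1 by 2.37-fold and Col3a1 by 2.08-fold (both named after their values were seen). Between 10 and 13 were lower under the other scalings and background correction. The 10 came under median scaling (17.4% of all features lower) and the 13 under the percentile of detected probes (37.2%).

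Enzymes that build the sulfated chains gave more higher than lower calls for chondroitin and dermatan sulfate. Of 24 tested genes for chondroitin and dermatan sulfate, 14 were higher, 2 lower and 8 did not pass (median 0.37). Of all features 34.6% were higher and 24.2% lower. Between 10 and 17 were higher under the other scalings and background correction. The 10 came under the percentile of detected probes (23.6% of all features higher) and the 17 under median scaling (48.1%). Chst11, a chondroitin 4-sulfotransferase, rose 2.36-fold, and Ust, a uronyl 2-sulfotransferase, and Csgalnact1, which starts chondroitin polymerisation, rose 1.83-fold each. Papss2, which makes the sulfate donor, fell 2.95-fold, and the sulfotransferase Chst12 fell 2.03-fold. Of 9 tested enzymes of keratan sulfate and its caps, 5 were higher and 3 lower. The counts became 3 and 3 under quantile normalization (29.2% and 28% of all features) and under the percentile of detected probes (23.6% and 37.2%). These counts are small and the lower ones are near the share over all features (34.6% higher and 24.2% lower). Fut8, the core fucosyltransferase, rose 4.30-fold, the sialyltransferase St3gal1 2.89-fold and B3gnt2 1.86-fold, whereas B4galt4 (1.52-fold), the sulfotransferase Chst2 (1.43-fold) and St3gal2 (1.28-fold) fell.

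Among growth factors, receptors and matrix proteins that members are known to bind, 13 of 22 tested were lower and 4 higher (24.2% and 34.6% of all features), or 10 and 8 under median scaling (17.4% and 48.1%). Besides Egfr, the largest falls were those of Tgfb2 (5.08-fold) and the Toll-like receptor Tlr2 (4.56-fold), a receptor for biglycan. Cd14, its co-receptor, rose 5.59-fold and Tgfb1 rose 3.58-fold. Itga2, a chain of a collagen receptor, was at least 1.42-fold higher. Of 12 tested proteases that cut the family and their inhibitors or enhancers, 8 were lower and 2 higher (24.2% and 34.6% of all features): Adamts5 was at least 29.8-fold lower, Adamts1 fell 7.43-fold and the inhibitor Timp3 2.98-fold, while the serine protease Htra1 rose 2.02-fold and Timp1 1.34-fold. Between 7 and 9 of the 12 were lower under the other scalings and background correction. The 7 came under median scaling (17.4% of all features lower). The 9 came under quantile normalization (28%) and the percentile of detected probes (37.2%).

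**Figure D3:**
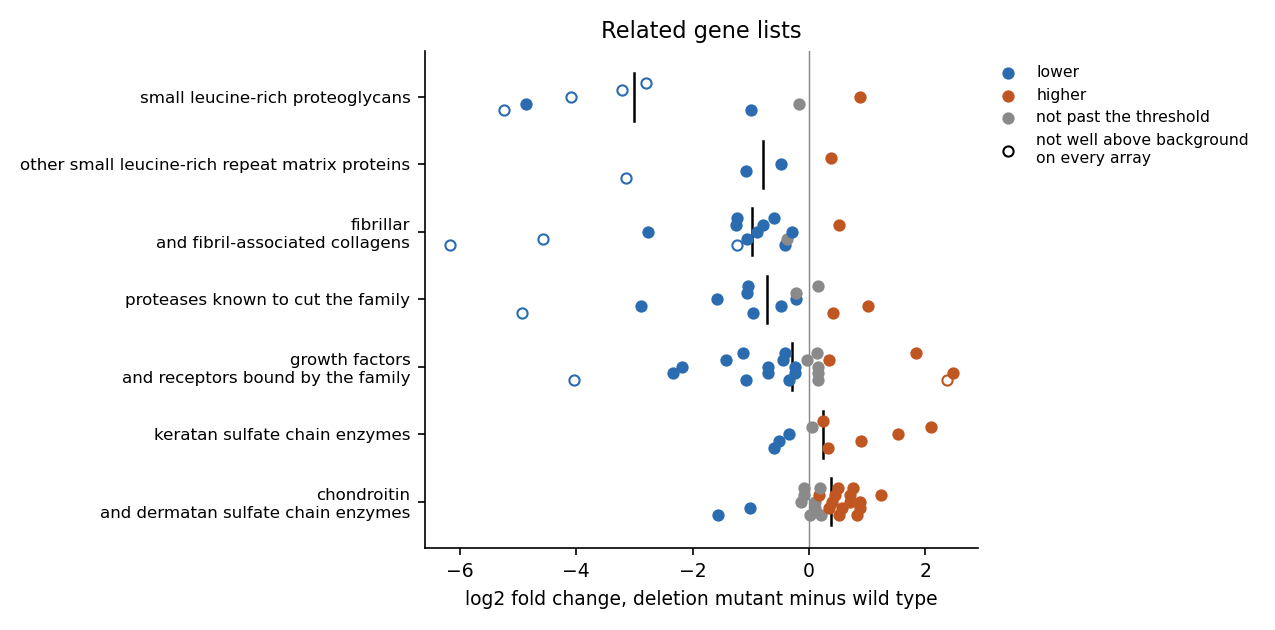
Log2 fold change (horizontal axis) of every tested gene of the family and of 6 related lists, with a black line at the median of each list; blue is lower, orange higher and grey not past the threshold, and open symbols were not well above background on every array. The family's median is -3.01 and that of the collagens -0.98, while chondroitin and dermatan sulfate enzymes have 0.37. With its 4 genes at background set to their bound, the family's median is -1.29. With normexp background correction the median is -0.96 for the family and -0.84 for the collagens.

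Markers of other cell types were summed as linear signal relative to the array's 75th percentile, because in bulk samples fewer cells of a type and less RNA per cell cannot be told apart. Their counts stand against 24.2% of all features lower and 34.6% higher. Fibroblast markers summed to 1800 and 1860 in wild-type and 1330 and 1380 in deletion-mutant arrays, with 6 of 9 tested lower and 1 higher. Under the percentile of detected probes 8 were lower and 0 higher, where 37.2% and 23.6% of all features were. Leukocyte markers summed to 37.4 and 39.4 against 22.3 and 22.3, with 4 of 7 tested and Ptprc not well above background on any array. The 1 that was lower, Itgam, an integrin chain, had log2 levels of 5.05 and 5.15 against 4.18 and 4.18 and carried most of that sum. Cd68, Cd3e and Csf1r did not pass under the main scaling. Under the percentile of detected probes 3 of the 4 tested leukocyte markers were lower (37.2% of all features). Epithelial markers summed to 0.484 and 0.390 against 0.653 and 0.645, with 2 of 7 tested, 1 higher and 1 lower. Epcam and Cdh1 were not well above background. Krt8, the higher of those tested, passed the background filter only through the deletion-mutant arrays, which fixed that direction. Endothelial markers summed to 7.12 and 6.61 against 6.63 and 6.75, with 2 of 6 tested, 1 lower, and Cdh5 not well above background. Kdr, which did not pass, had log2 levels of 2.75 and 2.63 against 2.64 and 2.68 and carried most of that sum. The lower one was Pecam1, and under quantile normalization 0 were lower (28% of all features). The part of these shifts in the values of the family was not tested.

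**Figure D4:**
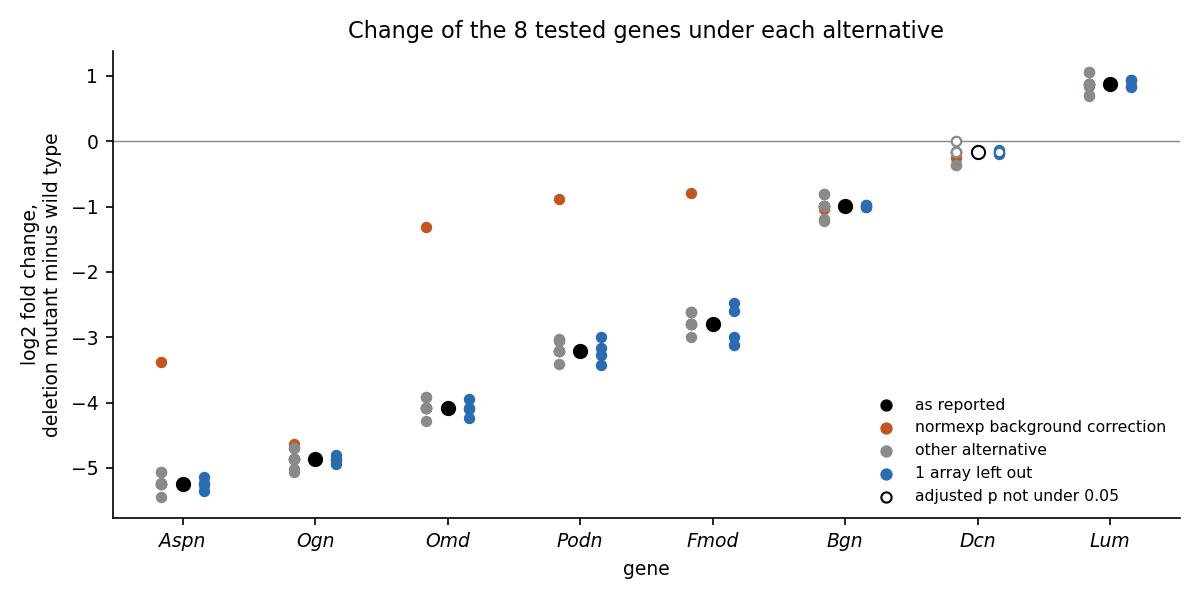
Log2 fold change of the 8 tested genes (vertical axis) under the reported processing (black), normexp background correction (orange), other alternatives (grey) and with 1 array left out (blue); open symbols have an adjusted p not under 0.05. Ogn stays between -5.07 and -4.64, with normexp Aspn shrinks to -3.38 and the dimmer Omd, Podn and Fmod to -1.31, -0.89 and -0.79, and Dcn alone changes its call.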

How the data were processed

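RNA from 4 samples was hybridised to 1-colour Agilent arrays, 2 per group. Per the file headers, spots were read with Feature Extraction 10.10.1.1 (protocol GE1_1010_Sep10) with coordinates on mm9. The deposited files give brightness as intensity on a linear scale, background-subtracted and detrended within the array, besides raw and local background intensity and flags. The authors' deposited matrix of log2 values equals the log2 processed signal plus a constant per array, within 0.01 for 100% of probes; no statistical test by the authors is named in the labels.

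Spots with an outlier flag were left out (116 to 142 per array), replicate spots were averaged on the log2 scale, and 11 probes without a usable spot were dropped. The 75th percentile of each array was subtracted. Probes well above background (at least a share of 0.5 of spots) on both arrays of 1 group or the other were kept (25162), and the brightest probe stood for a gene name. Groups were compared with limma 3.58.1 in R 4.3.3 (2 residual and 2.18 prior degrees of freedom), checked on simulated data, with a threshold of 0.05; 11604 features had an unadjusted p under it. Figures were drawn with matplotlib 3.10.9 and pandas 2.3.3 under Python 3.11.15. The number of arrays limits the precision. Sequences and gene order are from RefSeq; 9 of 10 member genes matched it by accession, and Prelp by symbol.

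Named genes were the members, Egfr, up to 3 rises and 3 falls of each related list, and called neighbours with a gene name; Ippk was named after its value was seen, as the gene next to Cenpp. The ratio of Bgn to Dcn was added after values were seen; the planned pairs lie within 1 cluster. The members and lists were chosen with earlier results of these data known. Alternatives were quantile normalization, normexp (offset 50), the authors' values, median scaling, no filter or a filter on all 4 arrays, trend with robust variances, the mean of probes, every probe, the percentile of detected probes, a replicate block and leaving out each array.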

Additional observations from a re-analysis of the deposited data

How the results depend on the processing

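Ogn, Bgn and Lum kept their direction under every alternative and passed under each that used all 4 arrays. Aspn, Omd, Podn and Fmod did so wherever they were tested. Except in the fit without a filter, they entered only through the wild-type arrays, which fixed their direction. Dcn was reversed, at 0.01, under median scaling and with the authors' values, and passed as lower under 4 other alternatives. The authors' values have nearly equal array medians (4.4454 to 4.4481), so they are nearly the same scaling as median scaling and no separate check. With a filter on all 4 arrays 2 genes were lower in place of 6, because 4 were no longer tested, and the median of the tested genes was -0.58. That median was -0.96 with normexp background correction, -2.84 under quantile normalization, -2.83 under median scaling and with the authors' values, -1.89 without a filter (10 genes) and -3.20 under the percentile of detected probes. Leaving out 1 array gave between -3.27 and -2.74, with 6 genes lower and 1 higher in each case, where the lone array of a group is assumed to vary like the other group. Of all calls, 58.9% were higher under the main scaling, 51.1% under quantile normalization, 73.5% under median scaling and 38.9% under the percentile of detected probes. Without a filter 6466 features passed, against 10631. The replicate block left 6 genes lower and 1 higher with a median of -3.01, changed no member's call and gave 9990 calls in all. Deviations of same-numbered arrays correlated at 0.0472, and they share a slide row besides the number. The neighbour counts under other scalings were added after seeing the data. Signal near background limits Aspn, Omd, Fmod and Podn, and each gene rests on 1 probe.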

Other observations

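Some regulators of skeletal tissue, in which this family is abundant, and the matrix marker Comp were measurable in these cells. Across all features 34.6% passed as higher and 24.2% as lower, so such calls are common. Runx2, a transcription factor of bone, rose 1.63-fold (limma adjusted p = 0.00833) and Sox9, one of cartilage, rose 1.39-fold (adjusted p = 0.004). Mkx, a transcription factor of tendon, rose 1.44-fold (adjusted p = 0.00873), and Egr1, an immediate-early factor also listed for tendon, rose 1.95-fold (adjusted p = 0.000856). Comp, a cartilage matrix protein that binds collagen, was at least 1.53-fold lower; it passed the background filter only through the wild-type arrays, which fixed that direction. Of 12 markers of bone and cartilage 9 were not tested, and of 5 of tendon 3 were not, among them Scx and Tnmd, which were not well above background on any array.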
